A study of Papio with 24 samples.

Results

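Genes whose level differed in one direction between restricted and control fetuses in all 3 fat depots were collected from cultures of stem cells derived from the fat of fetal baboons. The log2 normalised values of the omental, subcutaneous abdominal and subcutaneous femoral arrays of each fetus were averaged into 1 value, and the 4 restricted fetuses were set against the 4 control fetuses. A gene was a member when its restricted minus control difference had the same sign in each depot, read on the gene's probe with the highest mean signal. This held for 4779 of 10228 genes tested (46.7%), of which 2201 were higher and 2578 were lower in restricted fetuses, while the sign differed between depots in 5449 genes (53.3%). Genes picked out below for a small p or for the size of their smallest depot difference were ranked over all tested probes. Of them, 5 (ETV4, ERCC1, LRCH4, ATF4 and ABHD12) are read on a dimmer probe. On the brightest probe the first 3 of these kept their direction in all depots, ATF4 was a higher member and ABHD12 was of mixed sign. The restricted fetuses (restricted_9085, restricted_2820, restricted_9075 and restricted_9073) came from mothers whose diet was cut by 30% during the whole pregnancy, and the control fetuses (control_9017, control_9087, control_8011 and control_8009) from mothers that ate freely. All were taken on day 165 of a pregnancy whose term is day 184, and each diet held 1 male (restricted_9085 and control_9017) and 3 females. Cells were released from the fat with collagenase, expanded in serum-containing medium, frozen, thawed and grown to confluence, and RNA of 3 wells was pooled for each array, so the arrays read cells after culture and not the fat itself.

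Adipose-derived stem cells are the stromal progenitors of fat. They divide, lay down matrix and, on a hormonal signal, switch on PPARG and CEBPA and fill with lipid. Fetal growth under a poor maternal diet is known to be steered by imprinted genes, which are read from a single parental copy, and by the insulin-like growth factors with their binding proteins. Amino acid shortage is sensed in cells by mTOR and by the ATF4 stress response, both of which are background to a study of maternal restriction.

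Each of the 24 arrays carried human probes, and 13102 to 14994 probes were detected on an array. The 16933 probes detected on at least 4 arrays were tested, and 12863 of them named exactly 1 gene. Fetus restricted_2820 stood apart: its omental, abdominal and femoral arrays correlated with those of the other fetuses of the depot at 0.984, 0.978 and 0.985, the lowest 3 values of the 24 arrays. Its fetus mean was the highest or the lowest of the 8 in 42.2% of genes, against 17.2% to 29.9% for each other fetus. Values that moved by over 1.5 times without it are followed by the value without it. Many of the larger shifts made by another single fetus are given too, but not all. Progenitor surface genes were present, with 13 of 16 listed genes tested and a summed normalised intensity of 25082 to 31941 in restricted fetuses and 22031 to 34491 in control fetuses, but THY1 and DPP4 were detected on no array. Human probes can miss baboon transcripts, which was not assessed. In bulk cultures, fewer cells of a type and less RNA per cell cannot be told apart.

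Differences were small for most genes. Higher genes made up 21.5% and lower genes 25.2% of all genes tested, and the median difference over all genes was -0.0076 on the log2 scale. The balance of directions depended on the scaling: of the probes with 1 sign in all 3 depots, 3385 were higher and 3924 lower (53.7% lower), against 2037 higher and 5875 lower (74.3% lower) when arrays were scaled to a common median in place of quantile normalisation. The 2201 higher genes had a median difference of 0.15 on fetus means and the 2578 lower genes one of -0.14. Many lay close to the boundary of the rule. In 889 higher and 1120 lower genes, the smallest of the 3 depot differences was under 0.05, and in 2192 genes with mixed signs the odd depot was within 0.05 of 0. At the other end, 71 genes were higher and 54 lower by more than 0.5 in every depot. The depots share their fetuses, and leaving out any 1 fetus kept between 3423 (without restricted_2820) and 3902 (without restricted_9085) of the 4779 genes.

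One gene passed on fetus means. ZNF331, a zinc finger gene that is imprinted in humans, fell in restricted fetuses, and limma called this 1 probe of 16933 (0.00591%). Unadjusted p was under 0.05 for 1051 probes (6.21%), against 847 that this threshold gives. Non-overlapping fetus means were seen in 138 of the higher genes (1.35% of all genes tested) and 215 of the lower genes (2.1%). A fit of all 24 arrays, with depot as a term and a random block for the fetus, called 29 probes (0.171%), 14 higher and 15 lower. They use the depot differences that chose the members, so their shared sign is no separate result. The higher genes among them, with adjusted p from this block fit, were ZNF671 (0.000535), PGAP4 (0.00136), TNFRSF11B (0.00138), UQCR10 (0.0142), TAP1 (0.0145), GBE1 (0.0212), HLA-H (0.028), EIF2S3 (0.0293), BCL2L1 (0.0378), STC2 (0.0442) and ETV4 on both its probes (0.0411 and 0.0452). The lower ones were ZNF331 (0.000201), ERCC1 (0.000332), ABHD12 and ITGB1BP1 (0.00458 each), MOCS1 (0.00472), CLYBL on both its probes (0.00755 and 0.0138), USP38 (0.00929), MRFAP1L2 (0.0136), TERF1 (0.0138), MEG3 (0.0188), ZNF407 (0.0391), FAHD2B (0.0411) and DMAC2 (0.0459). ITGB1BP1, a partner of the beta 1 integrin tail, was named after its values were seen. It had the largest difference of the 29, with 8.13, 5.34, 5.74 and 5.86 in restricted_9085, restricted_2820, restricted_9075 and restricted_9073, against 8.03, 8.66, 8.13 and 8.90 in control_9017, control_9087, control_8011 and control_8009 (log2 normalised intensity). Restricted_9085 lay within the control range, and on fetus means ITGB1BP1 did not pass (-2.16 ± 0.56; adjusted p 0.783). The block fit assumes 1 correlation between the arrays of a fetus (0.253) for every probe. Where a probe's arrays agree more than that within a fetus, its block SE and p are too small. The SE of ITGB1BP1 was 0.34 in the block fit against 0.56 on fetus means, and that of ZNF331 was 0.10 against 0.07. A call in the block fit is therefore no separate support. In what follows, passing refers to the test on fetus means.

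ZNF331 had fetus means of 4.34, 4.33, 4.45 and 4.51 in restricted_9085, restricted_2820, restricted_9075 and restricted_9073, against 5.35, 5.12, 5.30 and 5.23 in control_9017, control_9087, control_8011 and control_8009 (log2 normalised intensity). The highest of the 12 restricted arrays was under the lowest of the 12 control arrays. The probe was detected on 0 of 12 restricted and 12 of 12 control arrays and entered the test through the controls, so restricted cells have only a bound, with controls at least 1.38-fold higher (limma adjusted p 0.0233, n = 4 and 4). The measured signals differed by -0.84 ± 0.07 (SE), a size that depended on the processing. It was -1.50 without further correction of the deposited, already background-subtracted intensities (adjusted p 0.181) and -3.93 with the series matrix values (0.008). A second ZNF331 probe, detected on 7 of the 24 arrays, differed by 0.01 ± 0.05, so the bound holds for the first probe and not for the gene. The call depended on single fetuses, since the adjusted p was 0.0545 without restricted_9085, 0.136 without restricted_9075, 0.0984 without control_8011 and 0.183 without control_8009. Leaving out the omental or the femoral arrays also ended it (0.164 and 0.287).

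**Figure D1:**
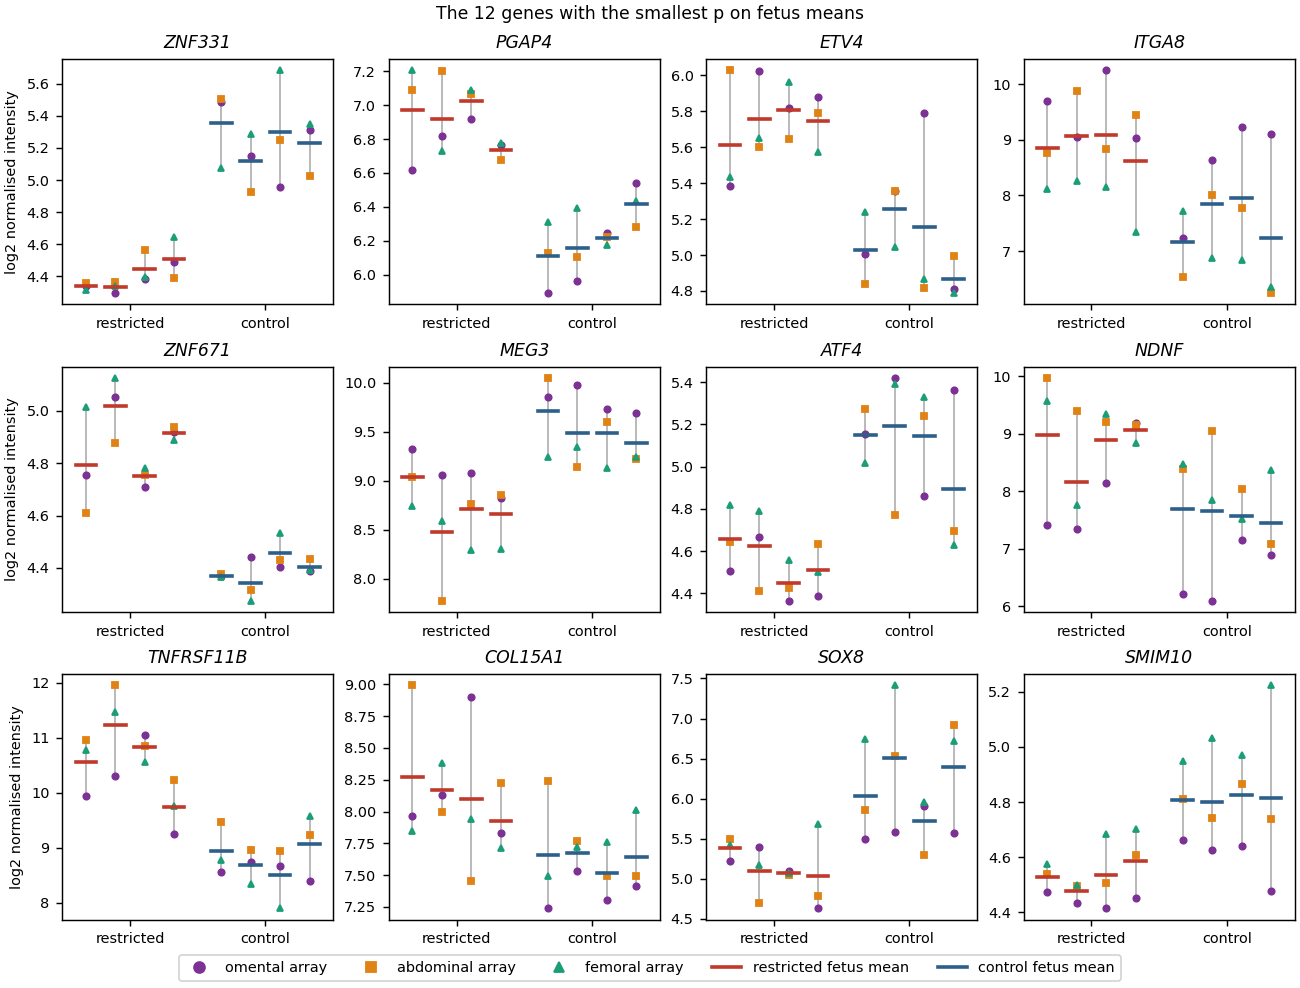
Log2 normalised intensity of the 12 genes with the smallest limma p on fetus means, restricted fetuses on the left of each panel in the order restricted_9085, restricted_2820, restricted_9075 and restricted_9073, control fetuses on the right in the order control_9017, control_9087, control_8011 and control_8009. Points are the 3 depot arrays of a fetus and bars their mean; all 4 restricted bars of ZNF331 lie between 4.33 and 4.51 and all 4 control bars between 5.12 and 5.35.

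PGAP4, ITGA8, TNFRSF11B and NDNF were among the higher genes with the smallest p. In the lists of fetus values that follow, the order is restricted_9085, restricted_2820, restricted_9075, restricted_9073 and then control_9017, control_9087, control_8011, control_8009. PGAP4, a Golgi enzyme that decorates the lipid anchor of surface proteins, stood at 6.97, 6.92, 7.02 and 6.74 in restricted fetuses, against 6.11, 6.16, 6.22 and 6.42 in control fetuses. Its 12 restricted arrays all lay above its 12 control arrays, and it differed by 0.69 ± 0.09 (SE; limma adjusted p 0.309). ITGA8, the alpha 8 integrin chain that binds nephronectin, had 8.86, 9.07, 9.08 and 8.61 in restricted and 7.16, 7.84, 7.95 and 7.23 in control fetuses. It differed by 1.36 ± 0.20 (adjusted p 0.309), most in abdominal cells at 2.09 and by 0.96 and 1.02 in omental and femoral cells. TNFRSF11B, or osteoprotegerin, a secreted decoy receptor for the bone-resorption ligand RANKL, had 10.55, 11.23, 10.82 and 9.74 in restricted fetuses, against 8.93, 8.68, 8.50 and 9.07 in control fetuses. This was the largest difference among the 24 genes with the smallest p, at 1.79 ± 0.29 (adjusted p 0.358), and the arrays of the diets did not overlap in any depot. It passed without restricted_9073 (0.0435). NDNF, a secreted neurotrophic factor, had 8.98, 8.17, 8.90 and 9.06 in restricted fetuses, against 7.69, 7.66, 7.57 and 7.44 in control fetuses. Its difference of 1.19 ± 0.19 (adjusted p 0.309) became a call without restricted_2820 (0.00338).

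ETV4, ZNF671 and BCL2L1 were also among the higher genes with the smallest p. ETV4, an ETS transcription factor downstream of growth factor receptors, had 5.61, 5.76, 5.81 and 5.75 in restricted and 5.03, 5.25, 5.16 and 4.86 in control fetuses, a difference of 0.66 ± 0.09 (SE; limma adjusted p 0.309). ZNF671, a zinc finger gene, had 4.79, 5.02, 4.75 and 4.92 in restricted and 4.37, 4.34, 4.46 and 4.40 in control fetuses. Its probe was detected on 9 of 12 restricted and 0 of 12 control arrays, so ZNF671 entered the test through the restricted arrays. The 12 restricted arrays lay above the 12 control arrays, and the restricted mean was 1.07-fold over the control detection limit. That mean includes undetected arrays, so the value is no lower bound. BCL2L1, which encodes the survival protein BCL-xL, had 9.79, 9.92, 9.94 and 9.73 in restricted and 9.42, 9.48, 9.54 and 9.43 in control fetuses. Its difference of 0.38 ± 0.07 was close to equal in the depots, at 0.42, 0.34 and 0.38 in omental, abdominal and femoral cells. COL15A1, a collagen of the basement membrane zone, differed by 0.49 ± 0.08, from 0.83 in omental to 0.23 in femoral cells. MID2, a ubiquitin ligase on microtubules, differed by 0.51 ± 0.10, the phosphatase gene MDP1 by 0.36 ± 0.07 and HMCES, which shields abasic sites in DNA, by 0.32 ± 0.06. None of these genes passed on fetus means, with adjusted p values of 0.309 to 0.563, and all had separate fetus means. ETV4, ZNF671 and BCL2L1 were called in the block fit.

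The lower genes with the smallest p included MEG3, SOX8, MOCS1 and ERCC1. MEG3, an imprinted long noncoding RNA, had 9.03, 8.47, 8.71 and 8.66 in restricted and 9.71, 9.49, 9.49 and 9.39 in control fetuses. It differed by -0.80 ± 0.12 (SE; limma adjusted p 0.309) and the diets' arrays were separate in each depot, at -0.74, -0.90 and -0.76 in omental, abdominal and femoral cells. SOX8, a transcription factor of neural crest and skeletal development, had 5.38, 5.09, 5.07 and 5.04 in restricted fetuses, against 6.03, 6.51, 5.72 and 6.40 in control fetuses. Its difference of -1.02 ± 0.17 (adjusted p 0.381) was -0.55 in omental and -1.37 in femoral cells. MOCS1, which starts the synthesis of the molybdenum cofactor, had 7.56, 7.33, 7.57 and 7.09 in restricted and 8.12, 7.82, 8.52 and 8.23 in control fetuses, a difference of -0.79 ± 0.16. ERCC1, a partner of the nuclease that cuts damaged DNA, had 4.67, 4.78, 5.16 and 5.84 in restricted fetuses, against 6.54, 6.41, 6.18 and 6.52 in control fetuses. Its difference of -1.30 ± 0.24 (adjusted p 0.483) passed without restricted_9073 (0.0435), the restricted fetus nearest to the controls, but its brightest probe differed by -0.20 ± 0.14. MEG3, MOCS1 and ERCC1 were called in the block fit. A dim probe of ATF4, the transcription factor of amino acid stress, had 4.66, 4.62, 4.45 and 4.51 in restricted and 5.15, 5.19, 5.14 and 4.90 in control fetuses. It was detected on 2 of 12 restricted and 10 of 12 control arrays and differed by -0.54 ± 0.08 (adjusted p 0.309). The brightest ATF4 probe was slightly higher in restricted fetuses in all depots (0.05 ± 0.11), so the gene has no settled direction.

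Other probes with small p and lower values were those of LSP1 (-0.95 ± 0.19), an actin-binding protein best known from white blood cells, and TNNT3 (-0.43 ± 0.09), a troponin of fast muscle. A dim probe of ABHD12, a lipase of lysophosphatidylserine, differed by -0.47 ± 0.09, but the brightest one by 0.02 ± 0.08 with mixed signs. LSP1 was uneven over the depots, at -0.19 in omental and -1.49 in femoral cells, and so was TNNT3, at -0.09 and -0.82. TNNT3 had fetus means of 4.53 to 4.74 in restricted fetuses, near the level of undetected probes, and 4.95 to 5.26 in control fetuses. Omental arrays of LSP1 lay at 5.02 to 5.96, against 5.53 to 7.90 in femoral cells. The small omental differences are therefore read at low signal and do not show a weaker response there. MRFAP1L2 differed by -0.41 ± 0.08 and LRCH4 by -0.29 ± 0.06. FIGNL2, of the fidgetin family, and SMIM10, a small membrane protein, were detected on 0 of 12 restricted arrays and on 7 and 6 of 12 control arrays. Both entered the test through the controls. The control mean was 1.13-fold over the restricted detection limit for FIGNL2 and 1.02-fold for SMIM10. These means include undetected control arrays, so neither value is a lower bound. None of these genes passed on fetus means, with limma adjusted p values of 0.393 to 0.563, and the dim ABHD12 probe and MRFAP1L2 were called in the block fit.

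Ranking by size in the weakest depot gave a partly different set. Ranked by the smallest of the 3 depot differences among genes with separate fetus means, the 6 higher genes were TNFRSF11B, C19orf33, ITGA8, NDNF, GBE1 and KCNK2, and the 6 lower were ERCC1, ZNF331, MEG3, CLYBL, USP38 and MOCS1. ZNF331 is ranked here on restricted signals that were under detection. GBE1, CLYBL and USP38 were called in the block fit. GBE1, the branching enzyme of glycogen synthesis, had 9.81, 10.73, 10.02 and 9.75 in restricted and 9.64, 8.99, 9.09 and 8.84 in control fetuses. It differed by 0.94 ± 0.24, at 0.94, 1.06 and 0.81 in omental, abdominal and femoral cells. CLYBL, a mitochondrial lyase, had 6.53, 7.41, 7.26 and 7.19 in restricted and 7.78, 8.26, 7.71 and 7.997 in control fetuses, and its 12 restricted arrays all lay below its 12 control arrays. KCNK2, a mechanically gated potassium channel, differed by 0.87 ± 0.24, but its depot differences had SEs of 0.70 and 0.60 in abdominal and femoral cells. C19orf33 differed by 1.53 ± 0.37, with 6.08, 6.32, 7.62 and 7.69 in restricted and 5.14, 5.28, 5.65 and 5.51 in control fetuses. USP38, a deubiquitinase, differed by -0.86 ± 0.22 and was detected on 3 of 12 restricted and 12 of 12 control arrays.

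**Figure D2:**
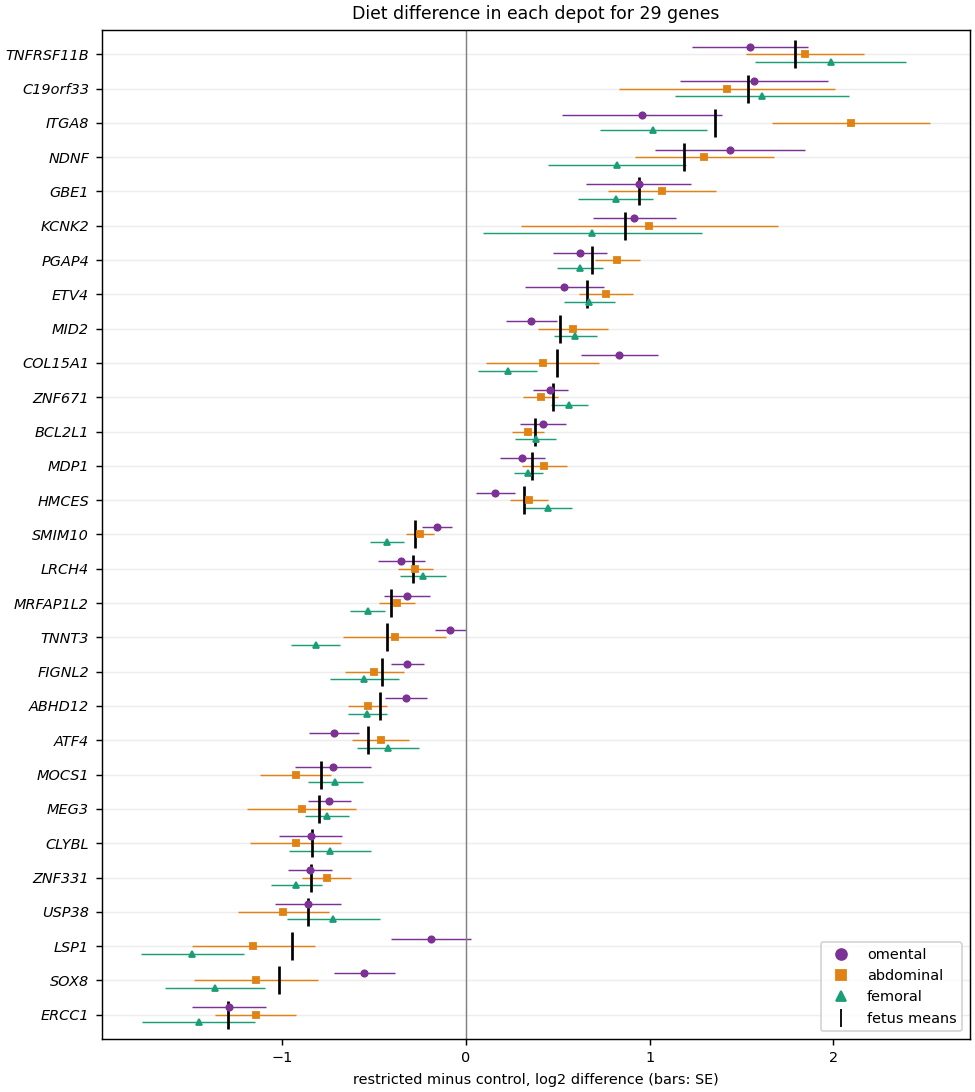
Restricted minus control log2 difference of 29 genes in omental, abdominal and femoral cells, with SE bars, and on fetus means (black ticks). The genes are those with the smallest p or the largest difference in their weakest depot. TNFRSF11B lies at 1.54, 1.84 and 1.98 and ERCC1 at -1.29, -1.15 and -1.46.

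Full separation of the arrays was rare. All 12 restricted arrays lay above all 12 control arrays for 3 genes (0.0293%), PGAP4, ZNF671 and UQCR10, and below them for 2 genes (0.0196%), ZNF331 and CLYBL. ZNF671 was detected on 0 control arrays and ZNF331 on 0 restricted arrays, so both passed the filter through the group where they were high. Their separation is therefore partly built in. UQCR10, a small subunit of respiratory complex III, had arrays of 8.092 to 8.464 in restricted and 7.649 to 8.085 in control cells, and its 2 other probes had the same sign. Arrays were separate within each depot for 6 higher genes (0.0587%) and 11 lower genes (0.108%). The higher ones added BCL2L1, TNFRSF11B and TAP1, the pump that loads peptides for class I antigen display. TAP1 averaged 9.10 ± 0.19 in restricted and 8.64 ± 0.11 in control fetuses (SD, n = 4 each). The lower ones added MEG3, MOCS1, MRFAP1L2, SMIM10, the telomere-binding gene TERF1 (-0.59 ± 0.12), the Mediator subunit MED20 (-0.24 ± 0.07), the elongation cyclin CCNT1 (-0.19 ± 0.05), ZC3H4 (-0.19 ± 0.05) and the translation initiation subunit EIF3E (-0.17 ± 0.05). The differences of EIF3E were -0.17 in each depot. SMIM10 was detected on 0 restricted and 6 control arrays, so the limit named for ZNF331 holds for it too. UQCR10, TAP1, TERF1, MED20, CCNT1, ZC3H4 and EIF3E were named after their values were seen, and none passed on fetus means, while UQCR10, TAP1 and TERF1 were called in the block fit.

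Other probes of the same gene did not always follow. Of the 29 genes with the smallest p or the largest difference in their weakest depot, 13 had another tested probe. In 8 of these every other probe had the same sign. ETV4 differed by 0.80 ± 0.12 on its second probe, BCL2L1 by 0.36 ± 0.10, KCNK2 by 0.86 ± 0.24, CLYBL by -0.78 ± 0.18 and LSP1 by -0.74 ± 0.15. Against this, the second probe of ZNF331 lay near 0, as did that of ABHD12. The other brighter ATF4 probe differed by -0.14 ± 0.10. MOCS1 had other probes at 0.06 ± 0.05 and -0.05 ± 0.08. ERCC1 was the most divided, with other probes at 0.22 ± 0.05 and -1.19 ± 0.63 beside its brightest. Over all 2137 genes with more than 1 tested probe, the probes shared a sign in 62.9%, and they did in 67 of the 90 such genes with separate fetus means (74.4%). Those 90 were picked by the values of 1 of these probes, and all probes were read on the same arrays. The higher share is therefore no separate support for them.

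**Figure D3:**
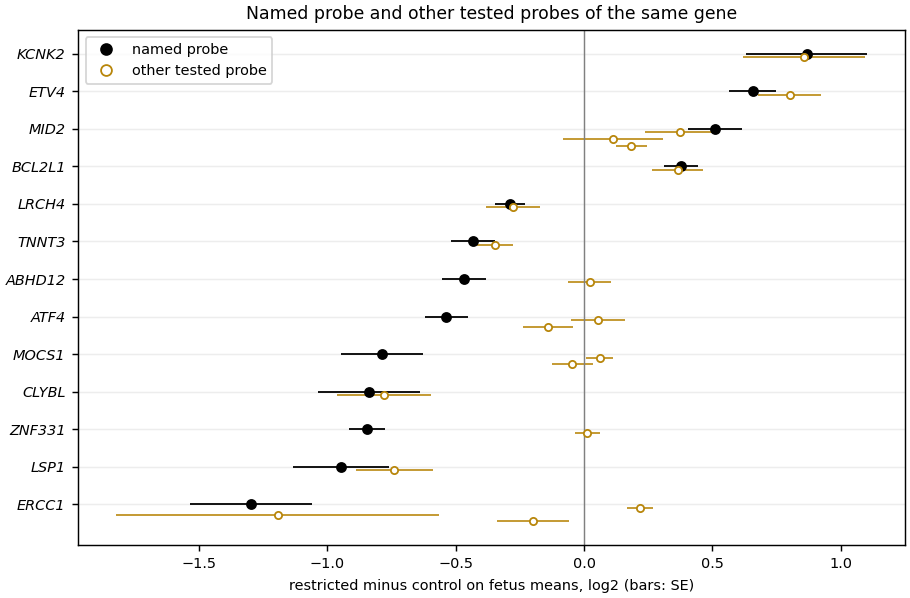
Restricted minus control log2 difference on fetus means, with SE bars, for the named probe (black) and the other tested probes (open) of 13 genes. Named and other probes of ETV4 lie at 0.66 and 0.80, whereas the measured signals of the named ZNF331 probe lie at -0.84 and its other probe at 0.01.

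Depot dependence of the diet difference was tested on within-fetus contrasts between depots. None of 16933 probes was called by limma, a count of 0 (0.0%). The smallest adjusted p was 0.999, and 627 probes were under 0.05 before adjustment. The smallest p values belonged to HLA-F, a nonclassical class I antigen gene, with differences of 1.25, 0.62 and 0.32 in omental, abdominal and femoral cells, and to TMLHE, of carnitine synthesis, with 0.23, -0.18 and -0.28. CBX3, a heterochromatin protein gene, had 0.08, -0.36 and 0.39, and ARPP21 had 0.39, -1.44 and -0.48. TMLHE and CBX3 were read here on dimmer probes of theirs. Missing this threshold does not show that the depots responded alike.

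The gene lists from here on were chosen with earlier results of these data known. Their counts and medians therefore describe the data and are no separate support for the members. Imprinted genes had 2 members higher and 8 lower in all depots of 16 tested, with a median difference of -0.09, against -0.0076 for all genes. ZNF331 was the 1 member that passed. CDKN1C, a brake on the cell cycle, had 6.17, 5.37, 6.26 and 6.28 in restricted and 6.98, 6.88, 6.59 and 7.13 in control fetuses, so the groups did not overlap (-0.87 ± 0.21; limma adjusted p 0.694). The fetal growth factor IGF2 had 5.53, 5.84, 5.26 and 4.91 in restricted and 6.43, 7.09, 5.50 and 6.98 in control fetuses. Control_8011 lay within the restricted range (IGF2 -1.11 ± 0.35; adjusted p 0.783), and a second IGF2 probe differed by -0.66 ± 0.22. In control_8009 the first probe stood at 8.63 on the abdominal array, against 6.18 in omental and 6.13 in femoral cells. The other abdominal controls had 5.23, 5.93 and 4.70, against 4.83, 7.07, 5.42 and 4.41 in restricted fetuses. The lower sign of this probe in abdominal cells therefore depended on that 1 array. H19, the noncoding RNA next to IGF2, had 11.68, 12.62, 10.97 and 11.39 in restricted and 13.21, 12.57, 11.94 and 13.22 in control fetuses (-1.07 ± 0.39). NNAT, a small membrane protein gene, went the other way at 9.31, 8.45, 10.29 and 10.25 in restricted and 7.90, 8.17, 9.03 and 8.70 in control fetuses (1.12 ± 0.43), and its second probe differed by 1.15 ± 0.39. The imprinted list median ran from -0.21 without restricted_9085 to -0.05 without control_9017. PEG10, NDN, ZIM2 and L3MBTL1 were detected on no array.

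The insulin-like growth factor axis had 4 members higher and 7 lower of 18 tested, with a median of -0.03 (-0.07 without restricted_2820). IGFBP3, the main carrier of these factors in blood, had 10.60, 10.76, 10.26 and 10.32 in restricted and 10.86, 10.95, 11.01 and 10.99 in control fetuses. The groups did not overlap, but the difference of -0.46 ± 0.11 (limma adjusted p 0.694) was -0.51, -0.78 and -0.10 in omental, abdominal and femoral cells. STC2, a secreted inhibitor of the protease that frees these factors from binding proteins, had 11.07, 11.61, 10.52 and 11.06 in restricted and 10.51, 10.55, 10.28 and 10.01 in control fetuses. It differed by 0.73 ± 0.22 (adjusted p 0.783) and was called in the fit of all 24 arrays (0.0442). Its relative STC1 differed by 1.24 ± 0.53, and by 0.77 without restricted_2820.

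Nutrient sensing genes and the ATF4 response showed small values. Of 20 tested genes of mTOR, AMPK and FOXO signalling, 2 were higher and 5 lower in all depots, with a median of -0.03. The S6 kinase gene RPS6KB1 differed by -0.16 ± 0.09 (-0.07 without restricted_9075) and RICTOR, of the second mTOR complex, by 0.13 ± 0.07. The stress sensor SESN1 differed by -0.15 ± 0.16 (-0.02 without restricted_9075, -0.05 without control_9017). The AMPK subunit PRKAG1 differed by 0.27 ± 0.20, and by 0.06 without control_9017. Of 27 tested genes of the ATF4 response, 5 were higher and 11 lower, with a median of -0.02, which turned to 0.0024 without restricted_2820. PHGDH, the first enzyme of serine synthesis, differed by -0.19 ± 0.12 (-0.12 without restricted_2820). The amino acid transporter chain SLC3A2 differed by -0.23 ± 0.11 and the lipoprotein receptor VLDLR by 0.27 ± 0.16 (-0.14 and 0.12 without that fetus). NUPR1, a stress-induced chromatin protein gene, differed by -0.38 ± 0.66 and by 0.36 without restricted_9085, where it stood at 8.35 against 11.1 to 11.7 in the other restricted fetuses. No member of either list passed.

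Of 23 tested fat cell regulators, 3 were higher and 7 lower in all depots and 56.5% were of mixed sign, near the 53.3% of all genes. The median was -0.04, and -0.0054 without restricted_2820 and 0.0060 without restricted_9075. CEBPA, a master regulator of fat cell formation, had 6.00, 5.57, 4.77 and 5.06 in restricted and 6.40, 5.80, 5.96 and 5.90 in control fetuses (-0.67 ± 0.26; limma adjusted p 0.8). The difference was -0.12 in omental and -1.25 in femoral cells, and the groups overlapped through restricted_9085. All omental arrays lay at 4.42 to 4.93, close to the level of undetected probes. The omental difference is therefore read near the floor and does not show a weaker response there. The lipase gene PNPLA2 differed by 0.33 ± 0.12, the lipid droplet coat PLIN2 by 0.40 ± 0.31 and 0.10 without restricted_2820, and ZNF423 by -0.20 ± 0.14 (-0.33 without restricted_2820, -0.09 without restricted_9075). Preadipocyte and anti-adipogenic genes had 3 higher and 3 lower of 11 tested, with a median of -0.0059 (-0.08 without restricted_2820, 0.07 without restricted_9073). Wnt and planar polarity genes had 6 higher and 7 lower of 28 tested, with a median of -0.0095 (-0.04 without restricted_2820, 0.0054 without control_8009). AXIN2, a feedback target of Wnt, differed by -0.70 ± 0.26, and the Wnt antagonist SFRP1 by 0.87 ± 0.38 (0.50 without restricted_9075). The antagonist DKK1 differed by -0.34 ± 0.27 (-0.12 without restricted_9075) and its relative DKK3 by 0.46 ± 0.40 (0.88 without restricted_2820, 0.24 without restricted_9085). PRICKLE1, a polarity gene, differed by 0.71 ± 0.24 and the nuclear receptor gene NR2F1 by 0.37 ± 0.28 (0.13 without restricted_2820). No gene of these 3 lists passed.

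Transcripts of ETV factors and growth factor feedback genes, a list chosen with earlier results known, were more often higher than lower. Of 19 tested ETV factors and feedback genes, 12 were higher and 2 lower in all depots, with a median of 0.19. Without restricted_2820 the counts were 9 and 5 and the median 0.07, while over all genes they were then 22.9% higher and 23.7% lower. ETV5, a relative of ETV4, had 6.51, 6.77, 6.31 and 6.30 in restricted and 5.79, 6.12, 6.13 and 6.44 in control fetuses (0.36 ± 0.15). FGF5, a fibroblast growth factor, differed by 0.97 ± 0.35 on one probe and 0.00 ± 0.12 on another. SPRY4, which is induced by and dampens receptor signalling, differed by 0.48 ± 0.21 (0.29 without restricted_9075) and by 0.40 ± 0.17 on its second probe. No member passed on fetus means, and ETV4 was called in the block fit.

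Integrins had 7 members higher and 0 lower in all depots of 13 tested, with the same counts without restricted_2820 and a median of 0.14 (0.10 without that fetus). ITGA3, a laminin-binding chain, had 5.32, 5.12, 5.10 and 5.16 in restricted and 4.88, 4.85, 4.85 and 5.07 in control fetuses, with no overlap (0.26 ± 0.08; limma adjusted p 0.783). ITGB1, the common beta chain and partner of ITGA8, had 11.72, 11.93, 11.98 and 11.81 in restricted and 11.69, 11.75, 11.51 and 11.70 in control fetuses (0.20 ± 0.08). The collagen-binding chains ITGA2 and ITGA10 differed by 0.38 ± 0.17 and 0.24 ± 0.18 (ITGA10 0.10 without restricted_9075). NPNT, the nephronectin ligand of ITGA8, was detected on no array. No integrin passed.

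Matrix, contractile and TGF-beta genes had shares of mixed sign near the 53.3% of all genes, at 58.8% of collagens and matrix genes, 43.8% of proteases and inhibitors, 57.9% of contractile genes and 60.0% of TGF-beta genes. Collagens and matrix genes had 6 higher and 8 lower of 34 tested, with a median of -0.06 (-0.0031 without restricted_9075). TNC, an adhesion-modulating matrix protein, differed by 0.51 ± 0.30 (0.30 without restricted_9085) and COL6A3 by -0.47 ± 0.38 (-0.13 without restricted_9085). COL6A1 differed by 0.72 ± 0.84 and by -0.26 without control_9017, which stood at 7.85 against 11.55 to 12.01 in the other controls. Proteases and inhibitors had 6 higher and 3 lower of 16, with a median of 0.08 (0.05 without restricted_2820, -0.0027 without restricted_9075). Among them were the urokinase receptor PLAUR (0.61 ± 0.23) and the procollagen protease ADAMTS2 (-0.36 ± 0.15). MMP10 differed by 0.48 ± 0.33, and by 0.15 without restricted_9073. TIMP2 differed by 0.19 ± 0.24, by 0.43 without restricted_2820 and by -0.0041 without restricted_9075. A second TIMP2 probe differed by -0.05 ± 0.17. Contractile genes had 5 higher and 3 lower of 19 and a median of 0.03 (-0.05 with median scaling, 0.02 without restricted_2820, -0.02 without restricted_9075). The nonmuscle myosin MYH10 differed by 0.19 ± 0.09 (0.12 without restricted_9075) and the calponin CNN2 by -0.18 ± 0.09 (-0.12 without restricted_2820). CCN1 differed by 0.23 ± 0.10 and its relative CCN2 by 0.26 ± 0.17 (CCN1 0.16 without restricted_2820, CCN2 0.43 without restricted_9085). Genes of the TGF-beta, BMP and activin signals had 5 higher and 3 lower of 20, with a median of 0.0055 (-0.04 with median scaling, 0.01 without restricted_2820, -0.02 without control_8011). FST, the activin antagonist follistatin, had 10.99, 12.04, 11.68 and 10.65 in restricted and 10.05, 10.85, 10.39 and 10.55 in control fetuses (0.88 ± 0.30), and its second probe differed by 0.83 ± 0.24. TGFB2 differed by 0.42 ± 0.16, the stress cytokine GDF15 by 0.40 ± 0.29 (0.14 without restricted_2820) and the BMP target ID1 by -0.41 ± 0.21 (-0.25 without control_8011). None of these genes passed.

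**Figure D4:**
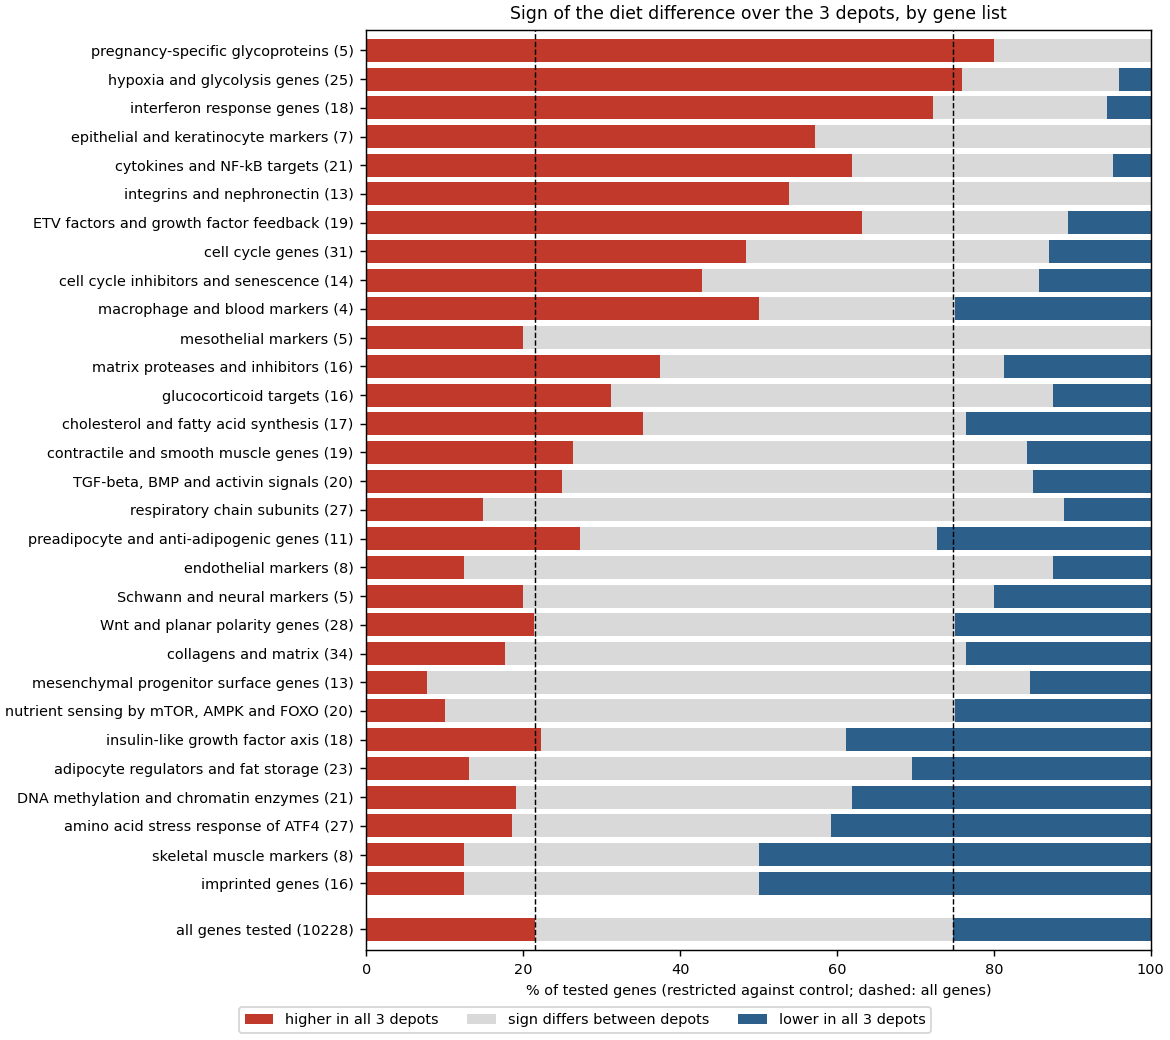
Share of the tested genes of each list, in % (number tested in brackets), whose restricted minus control difference was higher in all 3 depots (left), mixed (grey) or lower in all 3 depots (right). Dashed lines mark all genes tested, with 21.5% higher and 25.2% lower; 19 of 25 hypoxia and glycolysis genes were higher and 8 of 16 imprinted genes lower.

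Hypoxia and glycolysis genes had 19 members higher and 1 lower in all depots of 25 tested, with a median of 0.21. Without restricted_2820 the counts were 10 and 8 and the median 0.04. That fetus had the highest values, as in ENO2, a neuronal enolase, with 6.00, 8.03, 5.40 and 6.15 in restricted and 5.78, 5.58, 5.84 and 5.41 in control fetuses (0.74 ± 0.49; 0.20 without it). ALDOC, a brain aldolase, differed by 0.39 ± 0.44 and by -0.07 without it. GAPDH, of glycolysis, differed by 0.38 ± 0.19 and by 0.21 without it, and its 2 other probes differed by 0.43 ± 0.16 and -0.58 ± 0.79. ENO1 differed by 0.42 ± 0.37 and by 0.21 without it. Respiratory chain subunits had 4 higher and 3 lower of 27, with a median of -0.0048, and 9 and 1 with a median of 0.08 without restricted_2820. UQCRH of complex III differed by 0.22 ± 0.09, CYC1 by -0.17 ± 0.10 and SDHA of complex II by -0.14 ± 0.08 (CYC1 -0.09 and SDHA -0.08 without restricted_2820). Second probes of UQCRH and SDHA had the opposite sign, at -0.04 ± 0.09 and 0.02 ± 0.31. NDUFV2 of complex I had 10.89, 10.89, 10.91 and 10.90 in restricted and 11.15, 10.31, 10.35 and 10.33 in control fetuses (0.37 ± 0.18) and passed without control_9017 (limma adjusted p 0.0414). Cholesterol and fatty acid synthesis genes had 6 higher and 4 lower of 17, with a median of -0.06 and of 0.10 without restricted_2820. EBP, a sterol isomerase, differed by 0.32 ± 0.11, TM7SF2 by 0.27 ± 0.19 (0.12 without restricted_2820) and HMGCS1, which feeds the sterol pathway, by -0.28 ± 0.24 and -0.02 without restricted_2820. NSDHL differed by -0.22 ± 0.20, and by 0.0068 without restricted_2820.

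Cell cycle genes had 15 members higher and 4 lower in all depots of 31 tested, with a median of 0.10. Without restricted_2820 the counts were 16 and 2, but the median was -0.0047 without control_9017, which had the lowest level of the list. The mitotic kinases CDK1 and AURKB and the cyclin CCNA2 differed by 0.30 each (SEs 0.18, 0.17 and 0.18). Without control_9017, CDK1 differed by 0.15 and CCNA2 by 0.15, and without restricted_9075 AURKB differed by 0.19. AURKB had 6.98, 7.46, 7.63 and 7.14 in restricted and 6.74, 7.15, 7.28 and 6.84 in control fetuses, so the groups overlapped. TYMS, of thymidylate synthesis, took either of 2 levels, near 6 or near 9, with 6.28, 6.37, 8.65 and 8.94 in restricted and 6.36, 6.05, 9.69 and 6.29 in control fetuses. UHRF1, which maintains DNA methylation in dividing cells, differed by -0.26 ± 0.13 (-0.14 without restricted_2820). Cell cycle inhibitors and senescence genes had 6 higher and 2 lower of 14, with a median of 0.09 (0.05 without restricted_2820, 0.03 without control_9017). CDKN1A, the p53 target that halts the cycle, differed by 0.49 ± 0.25 on one probe (0.27 without restricted_9073) and by -0.14 ± 0.09 on another. MDM2, the ligase that degrades p53, had 6.51, 6.78, 6.62 and 6.63 in restricted and 7.29, 7.06, 6.88 and 7.08 in control fetuses, with no overlap (-0.44 ± 0.10; limma adjusted p 0.62). GAS6, a ligand of TAM receptors, differed by 0.73 ± 0.37 (0.40 without control_9017). No gene of either list passed.

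Interferon response genes and cytokines had their highest list level in restricted_2820. Of 18 tested interferon genes, 13 were higher and 1 lower in all depots, with a median of 0.40, and 5 and 2 with a median of 0.04 without that fetus. IFI44 had 4.69, 8.35, 4.77 and 4.81 in restricted and 4.63, 4.76, 4.54 and 4.58 in control fetuses (1.03 ± 0.76; 0.13 without it). IFI6 had 8.42, 11.34, 8.45 and 8.23 in restricted and 8.39, 7.80, 8.07 and 8.04 in control fetuses (1.04 ± 0.64; 0.29 without it). IFIT1, which binds viral RNA, differed by 0.85 ± 0.79 and by -0.07 without it. IFI27 was high in restricted_9085 too, with 6.82, 9.34, 5.34 and 4.78 in restricted and 4.56, 4.96, 5.01 and 5.50 in control fetuses (1.56 ± 0.88; 0.64 without restricted_2820). Of 21 tested cytokines and NF-kB targets, 13 were higher and 1 lower, with a median of 0.16, and 4 and 4 with a median of -0.03 without restricted_2820. The neutrophil attractant CXCL8 had 8.48, 12.24, 6.63 and 6.62 in restricted and 7.46, 6.39, 6.26 and 6.07 in control fetuses (1.95 ± 1.15; 0.70 without restricted_2820). IL6, an inflammatory cytokine, had 11.50, 12.80, 11.04 and 10.44 in restricted and 9.79, 10.73, 10.43 and 10.11 in control fetuses (1.18 ± 0.46; 0.73 without it). CXCL12, which retains blood stem cells in stroma, was lower at 7.15, 6.27, 6.06 and 6.50 in restricted and 7.12, 8.03, 6.91 and 7.37 in control fetuses (-0.86 ± 0.29). No gene of either list passed on fetus means, and TAP1 and TNFRSF11B were called in the block fit.

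Glucocorticoid targets had 5 higher and 2 lower of 16 tested, with a median of 0.08 and of 0.02 without restricted_2820. HSD11B1, which regenerates active cortisol, had 5.46, 7.46, 4.59 and 4.49 in restricted and 4.63, 4.73, 4.74 and 4.67 in control fetuses (0.81 ± 0.58; 0.15 without restricted_2820). The metallothionein genes MT1G and MT1E, whose near-identical copies can share a probe, differed by 0.64 ± 0.36 and 0.35 ± 0.49, and CRISPLD2 by -0.36 ± 0.29. MT1G differed by 0.37 without restricted_2820, MT1E by 0.04 without restricted_9085 and by 0.02 without control_9087, and CRISPLD2 by -0.12 without control_9017. DNA methylation and chromatin enzymes had 4 higher and 8 lower of 21, with a median of -0.03 (-0.0077 without restricted_2820). MTR, the methionine synthase of one-carbon metabolism, had 6.10, 5.69, 5.55 and 5.78 in restricted and 6.41, 6.05, 6.00 and 6.07 in control fetuses (-0.35 ± 0.13; limma adjusted p 0.8). TET1, which oxidises methylcytosine, differed by -0.21 ± 0.09 and MTHFD1, of folate metabolism, by 0.14 ± 0.10 (0.07 without restricted_9075). No gene of these lists passed.

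Pregnancy-specific glycoproteins, immunoglobulin-like proteins best known from placenta, had 4 members higher and 0 lower in all depots of 5 tested, with a median of 1.35 and of 1.24 without restricted_2820. PSG3 had 11.08, 10.76, 10.39 and 9.24 in restricted and 9.51, 9.04, 8.45 and 8.11 in control fetuses (1.59 ± 0.43; limma adjusted p 0.783). PSG9 had 9.62, 9.18, 9.03 and 7.88 in restricted and 7.97, 7.61, 7.02 and 6.79 in control fetuses (1.58 ± 0.39; adjusted p 0.7). In both, restricted_9073 lay below control_9017 and the other restricted fetuses lay above every control. PSG6 differed by 1.35 ± 0.44, and in it restricted_9073 (7.48) lay below control_9017 (7.63) and control_9087 (7.79). PSG5 had 6.10, 5.49, 5.38 and 4.94 in restricted and 4.72, 4.73, 4.44 and 4.50 in control fetuses, with no overlap (0.88 ± 0.22; adjusted p 0.694). Members of this family are near-identical in sequence, so their probes may read the same transcripts and are not separate observations. PSG1, PSG7, PSG8 and PSG11 were detected on no array.

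**Figure D5:**
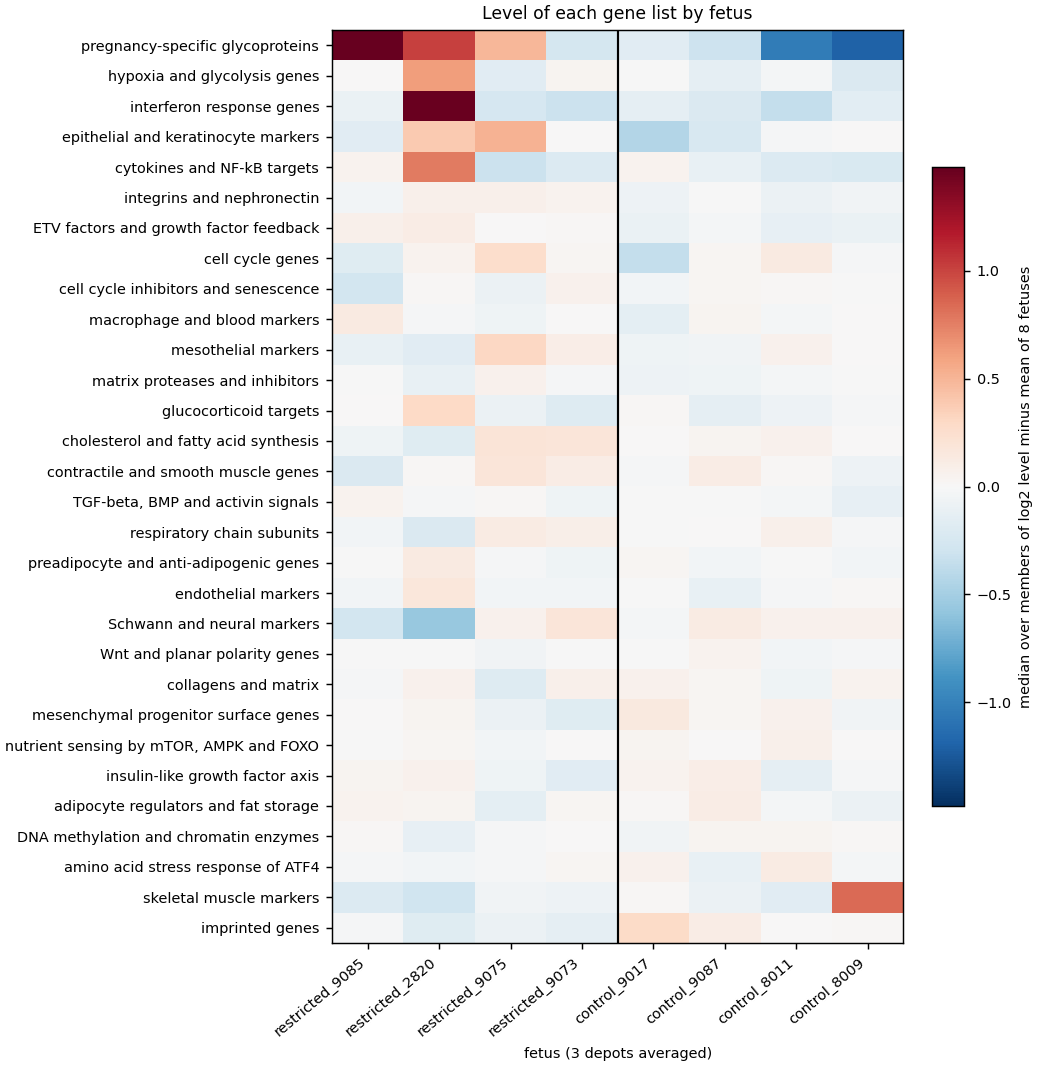
Level of each gene list by fetus, as the median over its tested members of the log2 value minus the mean of the 8 fetuses, restricted fetuses left of the line and control fetuses right of it. The interferon list stands at 1.46 in restricted_2820 and between -0.35 and -0.10 in the other 7 fetuses. The skeletal muscle markers stand at 0.84 in control_8009, where CDH15, CHRNA1 and ACTC1 were high on the abdominal array only.

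Macrophage and blood, endothelial and mesothelial markers had low summed signal beside the progenitor surface genes. Macrophage and blood markers had 2 higher and 1 lower of 4 tested, with a median of 0.04 (-0.01 without restricted_9085). PTPRC, CD163, CSF1R, AIF1, TYROBP, FCER1G, HBB and HBG1 were detected on no array, and the list's summed normalised intensity was 252 to 1138 in restricted and 252 to 332 in control fetuses. CD14 had 6.96, 8.80, 6.13 and 6.88 in restricted and 6.40, 6.48, 6.26 and 6.38 in control fetuses (0.81 ± 0.48; 0.27 without restricted_2820). CD68 differed by -0.12 ± 0.07 (-0.06 without restricted_9085) and LYZ by 0.08 ± 0.08 (0.0084 without restricted_9085). Other CD68 probes, at 0.16 ± 0.15 and 0.04 ± 0.07, were higher in all depots, so CD68 has no settled direction. A second LYZ probe lay at -0.00011 ± 0.07. Endothelial markers had 1 higher and 1 lower of 8 and a median of 0.03 (-0.01 without restricted_2820), with CDH5 detected nowhere. VWF differed by 0.16 ± 0.19 (-0.02 without restricted_2820) and ESAM by -0.14 ± 0.11 (-0.08 without restricted_2820), with sums of 220 to 484 in restricted and 213 to 424 in control fetuses. Mesothelial markers had 1 higher and 0 lower of 5 and a median of 0.05 (0.12 without restricted_2820, -0.04 without restricted_9075), with MSLN, KRT8, KRT18 and UPK1B detected nowhere and sums of 138 to 1173 in restricted and 125 to 892 in control fetuses. KRT19 had 5.32, 7.49, 6.52 and 6.31 in restricted and 4.71, 5.36, 5.47 and 5.88 in control fetuses (1.05 ± 0.43; 0.69 without restricted_2820).

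Epithelial and keratinocyte markers had 4 higher and 0 lower of 7, with a median of 0.37 and sums of 2006 to 3941 in restricted and 1514 to 3684 in control fetuses. SPINT2, a protease inhibitor of epithelia, had 10.74, 11.30, 11.44 and 11.43 in restricted and 10.27, 10.57, 10.89 and 10.64 in control fetuses (0.63 ± 0.18). EPCAM differed by 0.61 ± 0.24 on one probe and 0.05 ± 0.06 on another, the desmosome gene DSP by 0.37 ± 0.34 (0.18 without restricted_2820) and KRT14 by 0.17 ± 0.13 (0.27 without restricted_2820, 0.09 without restricted_9085). Skeletal muscle markers had 1 higher and 4 lower of 8, with MYOD1 detected nowhere, a median of -0.17 and of -0.0078 without control_8009. Sums were 787 to 2855 in restricted and 862 to 4282 in control fetuses. ACTC1, the cardiac actin of embryonic muscle, had 5.53, 5.99, 5.96 and 5.20 in restricted and 6.48, 6.01, 6.94 and 6.96 in control fetuses, at -2.22 in abdominal, -0.27 in omental and -0.30 in femoral cells. MYH3, of embryonic muscle, differed by -0.61 ± 0.43, CDH15 by -0.56 ± 0.26 and the acetylcholine receptor chain CHRNA1 by -0.32 ± 0.25. Without control_8009, MYH3 differed by -0.13, CDH15 by -0.29 and CHRNA1 by -0.04. In that fetus the abdominal array carried the high values, with CDH15 at 8.78 against 4.42 in omental and 4.58 in femoral cells. CHRNA1 stood at 8.33 against 4.74 and 4.90, and ACTC1 at 10.15 against 5.69 and 5.03. CDH15 was detected on 5 of 24 arrays. Schwann and neural markers had 1 higher and 1 lower of 5 and a median of 0.06 (0.09 without restricted_2820, -0.24 without restricted_9075), with ERBB3 at 0.06 ± 0.06 (0.03 without restricted_2820) and SOX8 as above. S100B, NGFR and GFAP were detected nowhere, and sums were 235 to 1772 in restricted and 502 to 1811 in control fetuses. Progenitor surface genes had 1 higher and 2 lower of 13 and a median of -0.0049 (-0.06 without restricted_2820, 0.0088 without control_8011), with CD34 at -0.42 ± 0.36 (-0.01 without restricted_9073) and ANPEP at -0.34 ± 0.17 (-0.23 without control_9087). The part of these cell types in the differences above was not tested.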

How the data were processed

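Per the file headers, the authors deposited an average intensity and a detection p-value for each of 48803 probes on 24 single-channel Illumina arrays. From the values, these intensities were background-subtracted and lacked normalisation between arrays. A deposited series matrix of quantile-normalised intensity served as an alternative. Scanner software and settings: not given in the sources used. Gene names came from GEO's platform annotation, which can be old: 28098 probes had 1 symbol, 13 several and 20692 none, and no gene was named from the last 2 kinds.

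The function neqc of limma 3.58.1 (offset 16; R 4.3.3) modelled the background, quantile-normalised the arrays and gave log2 values, and statmod 1.5.0 served the block fit. Probes with a detection p under 0.05 on at least 4 of 24 arrays were tested (16933). Depot arrays were averaged per fetus, and lmFit with eBayes gave two-sided tests of 4 restricted against 4 control fetuses, adjusted by Benjamini-Hochberg over all tested probes, with a call at an adjusted p under 0.05. Diet by depot was tested on within-fetus contrasts. Differences are restricted minus control, with standard errors. A fold over the detection limit divides the mean of the brighter group by the detection limit in the dimmer one. It is a lower bound ("at least") only for ZNF331, whose brighter group was detected on all its arrays. Code was tested on simulated data. Tables and plots used Python 3.11.15, numpy 2.4.6, pandas 2.3.3 and matplotlib 3.10.9.

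Named genes included the 24 with the smallest p among tested probes with one sign in all depots, not only the brightest of a gene. The 6 higher and 6 lower genes with the largest difference in their weakest depot were added, among those with separate fetus means. The rest were up to 4 members with the largest difference per list plus any that passed, and the 4 with the smallest diet by depot p. The 30 lists held 677 genes, 644 on the array and 495 tested, read on the probe with the highest mean. Members and lists were chosen with earlier results of these data known. The labels name separate fetuses, each with 1 array per depot, and the number of arrays limits the precision. Alternatives left out each fetus, depot or a single array, and varied filter, background, scaling, sex, unit of the fit and variance model. Without further background correction, the deposited background-subtracted intensities were shifted by the minimum of each array, in place of the neqc model and its offset. No sequence was used.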

Additional observations from a re-analysis of the deposited data

Results flagged for a closer look

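Fetus means were screened in each diet group of 4 for a fetus far from the other 3, by the gap to its nearest neighbour as a share of the group's range. Of 272 groups looked at, 28 passed the critical value, and 1 in 20 of them would be 13.6. The genes were chosen from these same fetus means and share the fetuses, so 13.6 is not a chance expectation for them. Restricted_2820 held 8 of them: IFI44 (gap share 0.967), SLC3A2 (0.955), ABHD12 (0.932), IFI6 (0.931), CDKN1C (0.872), USP38 (0.8645), IFIT1 (0.863) and UHRF1 (0.841). Its IFI44 level was 8.35 against 4.69 to 4.81 in the other restricted fetuses.

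Restricted_9085, a male, held 5: EPCAM (0.928), CCN2 (0.911), NUPR1 (0.837), PRICKLE1 (0.831) and SOX8 (0.831). NUPR1 stood at 8.35 against 11.1 to 11.7 in the other restricted fetuses, and at 7.95 against 10.8 to 11.3 on a second probe. Restricted_9073 held CRISPLD2 (0.913) and MMP10 (0.8415), and restricted_9075 held FIGNL2 (0.884) and CDH15 (0.831).

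Among controls, control_9017, a male, held NDUFV2 (0.954), COL6A1 (0.889) and TM7SF2 (0.851). COL6A1 stood at 7.85 there against 11.55 to 12.01 in the other controls. Control_8011 held CD34 (0.924), TYMS (0.916), FIGNL2 (0.872) and USP38 (0.8294), with TYMS at 9.69 against 6.05 to 6.36. Control_9087 held HMGCS1 (0.889) and MRFAP1L2 (0.857), and control_8009 held ITGA3 (0.841) and ATF4 (0.832).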

How the results depend on the processing

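The number of called probes, 1 as reported, ran from 0 to 3 when each fetus was left out. It was 0 with probes detected on all 24 arrays, without further background correction, with median scaling, with a term for sex, in female fetuses alone, and without the omental or the femoral arrays. It was 2 with the series matrix values. With 24 arrays in 1 fit it was 29 with the fetus as a replicate block (consensus correlation 0.253) and 213 with no replicate block, where arrays of a fetus count as independent. Fetus numbers pair depots and not diets, so no pairing of restricted with control fetuses was possible. ZNF331 stayed negative in every setting run, with a measured difference of -0.84 as reported, -1.50 without further background correction, -3.93 with the series matrix values (adjusted p 0.008) and -0.79 to -0.89 otherwise. Its adjusted p values were 0.181 without further background correction, 0.051 with median scaling, 0.0562 with sex in the model and 0.0979 in females only. Probes with one sign numbered 7309, and 15662 with no filter, which tests more probes. Those with separate fetus means numbered 551, with 885 to 1266 when a fetus was left out, 1697 in females only, which compares fewer fetuses, and 1224 with no filter. Probes called for diet by depot ran from 0 to 1 when a fetus was left out. Median scaling put 74.3% of one-sign probes on the lower side (2037 higher, 5875 lower), against 53.7% as reported (3385 and 3924), with a median over all probes of -0.0426 against -0.0047. Directions turned when a fetus was left out for ALDOC (-0.0659 without restricted_2820, up to 0.742), IFIT1 (-0.0712 without restricted_2820, up to 1.26), VWF (-0.0158 without restricted_2820, up to 0.329) and NSDHL (0.00684 without restricted_2820, down to -0.317). They also turned for NUPR1 (0.36 without restricted_9085, down to -0.754; 0.338 in females only), COL6A1 (-0.265 without control_9017, up to 1.12; -0.254 in females only), TIMP2 (-0.00409 without restricted_9075, up to 0.427) and CBX3 (-0.00735 without control_9087, -0.038 without restricted_9075, up to 0.106; -0.137 without the femoral arrays). LYZ turned in females only (-0.031) and TMLHE in females only (0.0241) and without the femoral arrays (0.0227). Over 136 named probes and 22 settings, 2866 values kept direction and side of the threshold, 54 gained a call, 10 lost one and 15 turned. These settings include the fits of 24 arrays, which called 29 and 213 probes, while every other setting called 0 to 3. The gained calls therefore come mainly from those fits. Of list medians, 647 kept within the spread and 41 moved. Depth is limited by signal over background, since several named probes were not detected in one diet. Except as named, the cause was not tested.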
